A study of Homo sapiens with 6 samples.

Results

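GLIPR1 and other genes of the CAP domain family were examined in 786-O, a widely used line of human clear cell renal carcinoma, with an shRNA against PLEKHO1 (shPLEKHO1, 3 arrays) or a negative control shRNA (shNC, 3 arrays). The shRNAs were delivered by lentivirus in both groups, so all 6 samples carry a hairpin. One single-colour Affymetrix array per sample gave 1 intensity for each of 49395 probe sets, of which 44988 were tested. A probe set was taken as a member where the array's annotation gave it exactly 1 symbol and that symbol was GLIPR1, GLIPR2, GLIPR1L1, CRISPLD1, CRISPLD2, PI15, PI16 or CRISP3. By this rule 7 of the 8 genes were found, with 26 probe sets, among 18132 genes in all. GLIPR2 had 0 probe sets under the rule and is not analysed here. The family was selected on the intensities of GLIPR1 in this same comparison, where it was known to be among the largest rises, so the difference of GLIPR1 is given below as a description and without a test. For the other members the limma p-value adjusted over all 44988 probe sets is given.

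The CAP domain is named after cysteine-rich secretory proteins, antigen 5 and pathogenesis-related 1 proteins, and it is found in secreted and membrane proteins of animals, plants and fungi. GLIPR1, also called RTVP-1, was identified in gliomas, where it favours growth and invasion, while in prostate cancer it has been described as a tumour suppressor. CRISPLD1 and CRISPLD2 join the CAP domain to LCCL domains, and CRISPLD2 is secreted, binds lipopolysaccharide and is known as a gene that glucocorticoids induce in the lung. PI15 and PI16 were named as peptidase inhibitors, CRISP3 is a protein of saliva, semen and neutrophil granules, and GLIPR1L1 is known from sperm.

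The sequences before the transcription start of CRISPLD2, the member outside GLIPR1 that rose here, and of CRISP3, a member read near background, are shown to set the start region of a measured gene beside that of one hardly read. Both are the 250 bases before the RefSeq start in GRCh38.p14, 5′ to 3′ on the strand of the gene, with GC boxes (GGGCGG, either strand) in capitals.
CRISPLD2, chr16:84819735-84819984, plus strand: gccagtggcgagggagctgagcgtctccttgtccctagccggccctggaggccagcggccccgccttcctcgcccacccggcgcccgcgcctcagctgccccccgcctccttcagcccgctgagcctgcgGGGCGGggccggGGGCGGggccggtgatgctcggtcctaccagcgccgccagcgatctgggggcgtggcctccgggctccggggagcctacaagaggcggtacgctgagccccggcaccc
CRISP3, chr6:49744389-49744638, minus strand: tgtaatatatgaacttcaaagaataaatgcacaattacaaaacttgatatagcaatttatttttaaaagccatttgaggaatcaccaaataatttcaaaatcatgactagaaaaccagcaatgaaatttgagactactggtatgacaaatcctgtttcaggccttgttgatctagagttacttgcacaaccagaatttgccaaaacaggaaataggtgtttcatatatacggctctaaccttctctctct

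The CRISPLD2 sequence was 77.6% G or C with 27 CpG dinucleotides, and the CRISP3 sequence was 32.4% G or C with 1 CpG. The median over 35116 such sequences in RefSeq was 58.0% G or C and 11 CpG. CRISPLD2 had 2 GC boxes and CRISP3 had 0, where 24.3% of all sequences held at least 2. Neither held an AP-1 site (TGANTCA), a cAMP response element (TGACGTCA), an E-box (CACGTG), a CArG box, or an NF-kB site in its consensus form, on either strand. The shares of all sequences with these motifs were 6.57%, 1.65%, 6.34%, 1.16% and 5.21% in that order. The same search found none of the 5 motifs and no GC box before GLIPR1L1 (58.4% G or C, 12 CpG) or PI16 (55.2%, 3 CpG). GLIPR1L1 was also read near background, with a base composition close to the median. Whether base composition goes with the reading was not tested.

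The arrays had close overall brightness, with median intensities from 55.7 to 57.1, and the correlation of log2 values across probe sets was 0.998 within groups and 0.988 to 0.989 between them. PLEKHO1, the targeted gene, had intensities of 110, 116 and 97.4 on the shPLEKHO1 arrays, against 135, 143 and 126 on the shNC arrays. PLEKHO1 was thus 19.8% lower (95% confidence interval from 9.47% to 29.0%, limma adjusted p = 0.0124; exact two-sided permutation p = 0.1, the smallest that 3 against 3 arrays allow). For the comparison with background and for summed intensities, each cell type marker was read by its most strongly hybridising probe set. Of 9 renal epithelial and clear cell carcinoma markers, 8 were measured and all 8 were so read above the background probe set with 20 G or C bases on every array. The other PAX2 probe set, 11728623_a_at, was above it on 0 arrays, and above that with 17 on 4. Of the 25 renal marker probe sets 12 rose and 8 fell, where 17.3% of all tested probe sets rose and 15.7% fell. Most of the 25 lay in bins 7 to 10 of 10 bins of intensity, counted from the dimmest. In those bins 50.1% to 62.1% of probe sets were called in either direction. The cadherin CDH6 fell with all 3 (-0.96 to -0.83). The kidney transcription factors PAX8 and PAX2 fell with 3 of 4 and 2 of 2 (to -0.33). EPAS1 and KRT18 rose with 2 of 2 each (0.48 to 0.54). KRT8 rose with 7 of 8 (all 8 from 0.15 to 0.32) and CDH2 with 1 of 2 (0.15). Neither VIM probe set passed (0.02 and 0.04). None of the 4 measured leukocyte markers was above the background probe set with 17 G or C bases on all arrays, and their summed intensity was 47.7 to 57.5 with shPLEKHO1 and 46.9 to 49.0 with shNC. Of the 6 fibroblast markers, 3 were above the background probe set with 17 G or C bases on all arrays, and 1, COL1A1, above that with 20. Their summed intensity was 176 to 213 with shPLEKHO1 and 167 to 180 with shNC. Of the 3 endothelial markers, 2 were above the background probe set with 17 G or C bases on all arrays, and 1, VWF, above that with 20. Their summed intensity was 133 to 139 with shPLEKHO1 and 135 to 160 with shNC. Most of the 24 fibroblast marker probe sets lay in the 3 lowest of the 10 bins of intensity. In those bins 2.76% to 11.8% of probe sets were called in either direction. Of the 24 fibroblast marker probe sets 2 rose and 0 fell, with a median difference of -0.02. One of the 2 was of the collagen gene COL1A1 (1 of its 5, 0.19 ± 0.06, limma adjusted p = 0.0418), and the other was the 1 probe set of LUM, which codes for the proteoglycan lumican (45.8 ± 4.65 with shPLEKHO1 and 25.7 ± 1.18 with shNC, SD, n = 3 each; log2 difference 0.81 ± 0.07, limma adjusted p = 7.68e-05). The part of these marker changes in the results below was not tested. Whether replicates came from separate cultures is not stated in the labels, and the p-values cover the variation among these 6 arrays alone, which may be technical. Fewer cells with a transcript and less transcript per cell cannot be told apart in such samples.

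Each difference is shPLEKHO1 minus shNC, in units of log2(intensity + 1) after quantile normalization, with its SE from limma and n = 3 arrays per group. "Rose" and "fell" mean an adjusted p under 0.05, and intensities are the deposited values. Outside GLIPR1, 4 of the 20 member probe sets rose and 0 fell, where 17.3% of all tested probe sets rose and 15.7% fell. All 4 were of CRISPLD2. In 5 of the 20 the normalized values of the groups did not overlap, 4 of them higher with shPLEKHO1, where 44.5% of all tested probe sets did not overlap and 23.8% were higher. The other 16 probe sets, of 6 genes, did not pass. The median difference was 0.08 over the 20 probe sets and 0.01 over all tested probe sets.

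All 6 GLIPR1 probe sets were higher with shPLEKHO1, by 2.13-fold to 4.41-fold. The most strongly hybridising of them, 11721842_a_at, read 926, 950 and 948 on the shPLEKHO1 arrays, against 218, 202 and 219 on the shNC arrays. Every shPLEKHO1 array was far above every shNC array, and the mean intensity was 941 ± 13.2 with shPLEKHO1 and 213 ± 9.47 with shNC (SD, n = 3 each). The log2 difference was 2.14 ± 0.05, which is 4.41-fold (95% confidence interval from 4.07 to 4.77) and the rank 4 of 44988 among the differences upward. The interval takes no account of the choice of GLIPR1 for its rise.

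Probe set 11721840_at read 414, 420 and 407 on the shPLEKHO1 arrays, against 136, 120 and 129 on the shNC arrays (log2 difference 1.69 ± 0.05). Probe set 11747591_a_at read 618, 647 and 688 on the shPLEKHO1 arrays, against 221, 201 and 194 on the shNC arrays (1.67 ± 0.06). These 2 probe sets gave close folds, 3.22 and 3.18. Probe set 11721838_a_at read 508, 446 and 554 on the shPLEKHO1 arrays, against 188, 190 and 189 on the shNC arrays (1.41 ± 0.09). It had the widest spread within shPLEKHO1 among the GLIPR1 probe sets, with an SD of 54.5, while its SD within shNC was 1.18. Probe set 11721839_at read 541, 558 and 564 on the shPLEKHO1 arrays, against 219, 204 and 211 on the shNC arrays (1.40 ± 0.05).

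The smallest GLIPR1 difference was that of 11721841_at, which read 168, 175 and 188 on the shPLEKHO1 arrays, against 85.8, 78.3 and 85.1 on the shNC arrays (1.09 ± 0.06). The 6 probe sets had 1 direction and differed in size, and whether they differ from each other was not tested. With the mean of the 6 probe sets the GLIPR1 difference was 1.57 ± 0.04. The transcripts that each probe set covers were not analysed here.

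**Figure D1:**
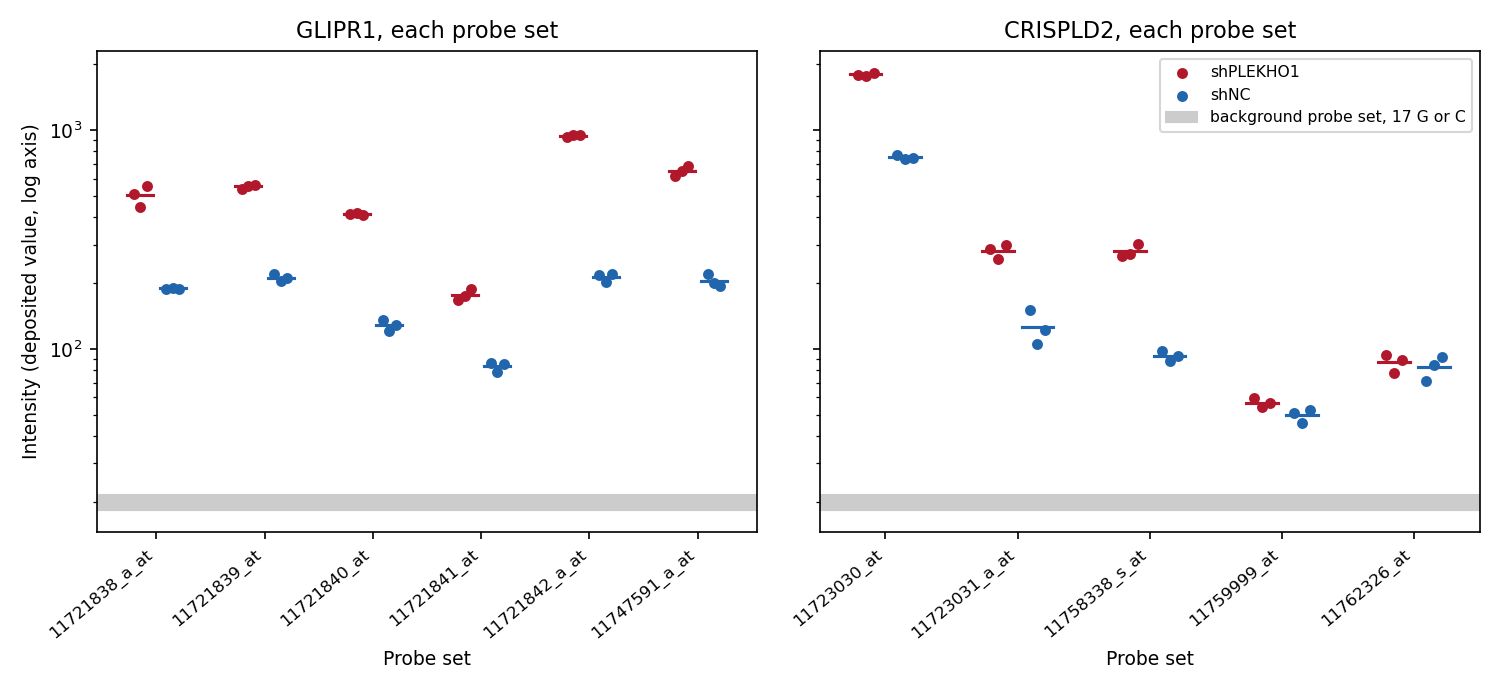
Intensity on a log axis for each probe set of GLIPR1 (left) and CRISPLD2 (right), with 1 point per array, 3 shPLEKHO1 arrays (red) left of 3 shNC arrays (blue), a line at each group mean, and a grey band at the range over the 6 arrays of the background probe set with 17 G or C bases. For all 6 GLIPR1 probe sets and 4 of the 5 CRISPLD2 probe sets the shPLEKHO1 points lie above the shNC points, by little for 11759999_at, and the groups overlap for 11762326_at.

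CRISPLD2 was the member outside GLIPR1 that rose. Its probe set 11723030_at read 1786, 1774 and 1832 on the shPLEKHO1 arrays, against 770, 736 and 749 on the shNC arrays. The groups were well apart, with means of 1797 ± 30.9 with shPLEKHO1 and 752 ± 17.2 with shNC (SD, n = 3 each). The log2 difference was 1.25 ± 0.05, which is 2.37-fold (95% confidence interval from 2.20 to 2.56, limma adjusted p = 1.52e-06).

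Probe set 11758338_s_at of CRISPLD2 read 265, 272 and 301 on the shPLEKHO1 arrays, against 97.9, 88.5 and 92.8 on the shNC arrays. It gave the largest CRISPLD2 difference, 1.58 ± 0.07 or 2.99-fold (limma adjusted p = 2.25e-06). Probe set 11723031_a_at read 286, 258 and 297 on the shPLEKHO1 arrays, against 150, 105 and 122 on the shNC arrays (1.17 ± 0.12, limma adjusted p = 0.000142). Among all 44988 probe sets, these 3 ranked 30 (11758338_s_at), 105 (11723030_at) and 142 (11723031_a_at) by the difference upward.

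The remaining 2 CRISPLD2 probe sets moved little or did not pass. Probe set 11759999_at read 59.8, 54.4 and 56.4 on the shPLEKHO1 arrays, against 50.7, 46.0 and 52.3 on the shNC arrays. Its groups did not overlap, but the difference was 0.21 ± 0.07, just past the threshold (limma adjusted p = 0.0456), and the call was lost when any 1 of the 6 arrays was left out (adjusted p from 0.0511 to 0.131). Probe set 11762326_at read 93.7, 77.8 and 88.8 on the shPLEKHO1 arrays, against 71.7, 84.5 and 91.5 on the shNC arrays, and its groups overlapped. The difference of 11762326_at was 0.08 ± 0.10 (95% confidence interval from -0.16 to 0.31, limma adjusted p = 0.641). With the mean of all 5 probe sets CRISPLD2 rose by 0.86 ± 0.05 (limma adjusted p = 1.44e-05 over genes), and with its most strongly hybridising probe set alone by 1.25 ± 0.04 (1.62e-06).

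Over all tested genes with 5 probe sets, 117 of 988 had at least 4 that rose, as CRISPLD2 did. This count describes the array and is no test of CRISPLD2.

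Background probe sets, which are designed to match no human transcript, gave the level of unspecific signal. The one with 17 G or C bases of 25 read 18.3 to 21.6 on the 6 arrays and the one with 20 read 50.2 to 62.4, while the base composition of the members' probes was not analysed here. All 6 GLIPR1 and all 5 CRISPLD2 probe sets were above the 17-base background on every array, but 11759999_at of CRISPLD2 was above the 20-base background on 1 of 6 arrays. Background itself was slightly higher with shPLEKHO1, by 0.07 (17 G or C bases), 0.12 (20 G or C bases) and up to 0.19 (24 G or C bases) on the log2 scale. These shifts are small beside the GLIPR1 differences and the 3 large CRISPLD2 differences, and near the size of the differences of 11759999_at (0.21), 11762326_at and most PI16 probe sets. Their part in those small differences was not tested.

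PI16, a CAP domain protein known from fibroblasts and heart, did not pass with any of its 5 probe sets. Its intensities ran from 43.6 to 78.6 with shPLEKHO1 and from 42.9 to 67.8 with shNC, above the 17-base background on every array, while 2 of the 5 probe sets were above the 20-base background on every array. Differences ran from -0.11 to 0.25, with no common sign, and the 95% confidence intervals reached from -0.33 to 0.48. The largest, of 11723456_x_at, came from readings of 59.3, 43.6 and 54.5 with shPLEKHO1, against 43.8, 45.5 and 42.9 with shNC (0.25 ± 0.10, limma adjusted p = 0.102). The second shPLEKHO1 array lay among the shNC arrays, and without it the difference was 0.37 (adjusted p = 0.00366).

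The remaining 4 measured members, GLIPR1L1, CRISPLD1, PI15 and CRISP3, with 10 probe sets, gave no reading above the 17-base background on any of the 6 arrays. GLIPR1L1 read 8.26 to 11.2 with shPLEKHO1 and 7.61 to 9.32 with shNC (0.12 ± 0.12, limma adjusted p = 0.493). CRISPLD1, the paralogue of CRISPLD2, read 5.49 to 13.6 over its 5 probe sets with shPLEKHO1 and 5.45 to 15.7 with shNC, with differences from -0.16 to 0.02 and adjusted p-values from 0.217 to 0.860. Of these paralogues, CRISPLD2 alone read above the 17-base background.

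PI15 read 8.08 to 20.1 over its 2 probe sets with shPLEKHO1 and 8.91 to 17.6 with shNC, with differences of -0.08 ± 0.07 and 0.10 ± 0.10. CRISP3 read 6.96 to 10.5 over its 2 probe sets with shPLEKHO1 and 6.18 to 12.6 with shNC, with differences of -0.15 ± 0.07 and 0.08 ± 0.08 (limma adjusted p = 0.118 and 0.525). After normalization the CRISP3 probe set 11725309_at was lower on every shPLEKHO1 array than on any shNC array, as 20.8% of all tested probe sets were, and it passed when shNC replicate 3 was left out (-0.22, adjusted p = 0.0336). A probe set of CRISPLD1, 11723288_at, likewise passed when shNC replicate 2 was left out (-0.25, adjusted p = 0.0472; -0.16 ± 0.09 and 0.217 with all arrays). At readings this close to background a fall or a small change of these genes could be missed, and the pseudocount and the remaining background make any fold of theirs too small.

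**Figure D2:**
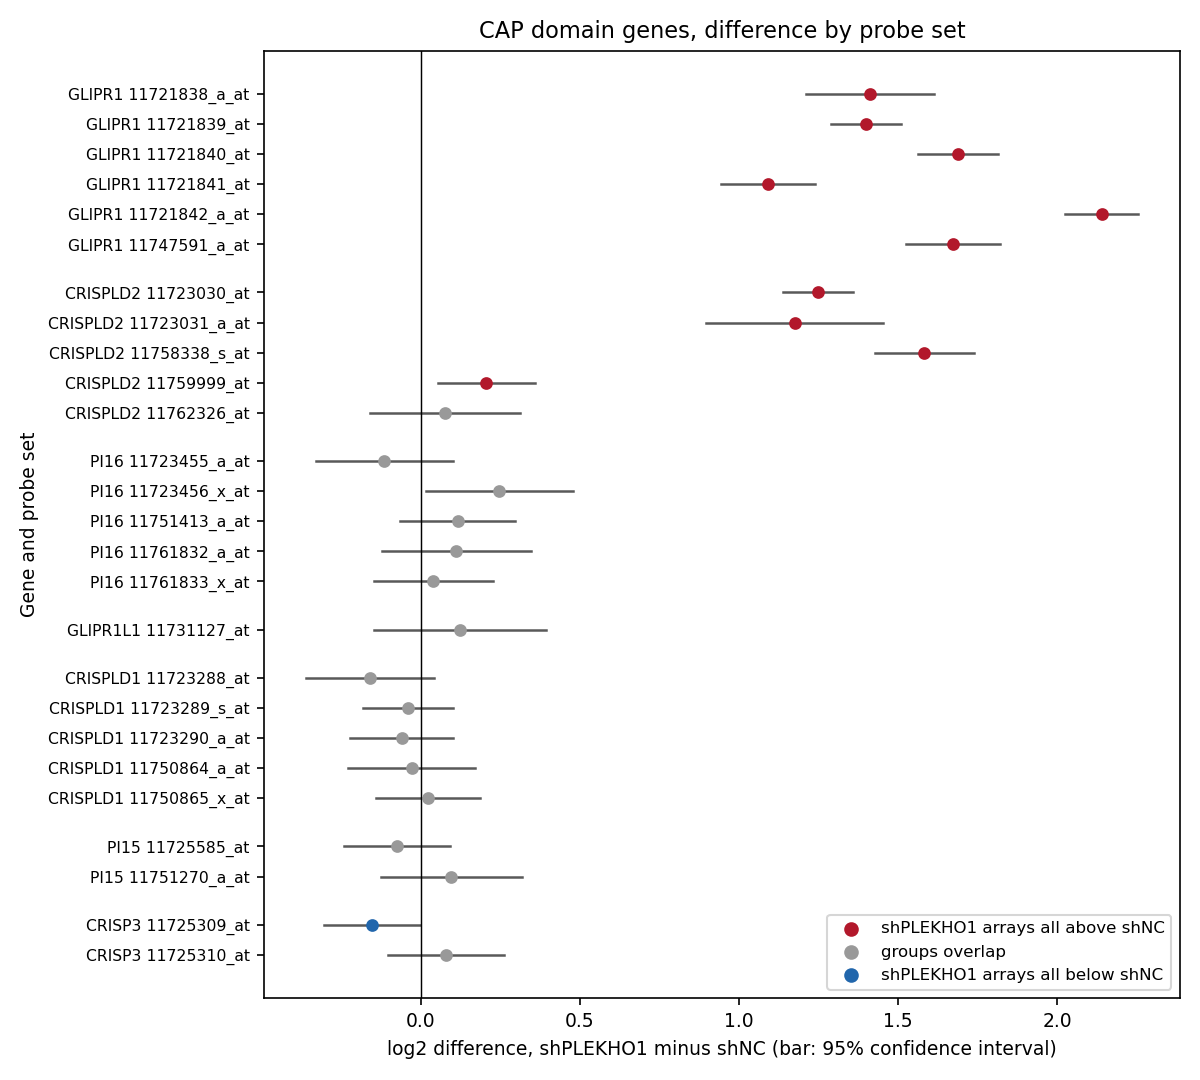
Log2 difference of shPLEKHO1 minus shNC (horizontal axis) for each of the 26 member probe sets, with its 95% confidence interval from limma as a bar, coloured by whether the 3 normalized values of shPLEKHO1 lie all above, all below or among those of shNC. The 6 GLIPR1 and 3 of the CRISPLD2 probe sets stand at 1.09 to 2.14, and the other 17 lie between -0.16 and 0.25.

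The range of differences widened with intensity up to bin 9 of 10 bins of level and was somewhat narrower in bin 10, the brightest. The members were therefore also set against tested probe sets of like intensity, bin by bin. All 6 GLIPR1 probe sets and 3 of the 5 CRISPLD2 probe sets were above the 95th percentile of the differences in their bin, which was at 0.46 to 0.65 for these genes. For GLIPR1 this place is a description only, because the gene was chosen for its large rise. Of the 15 probe sets of the other 5 genes, 0 were above the 95th percentile of their bin and 0 below the 5th.

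**Figure D3:**
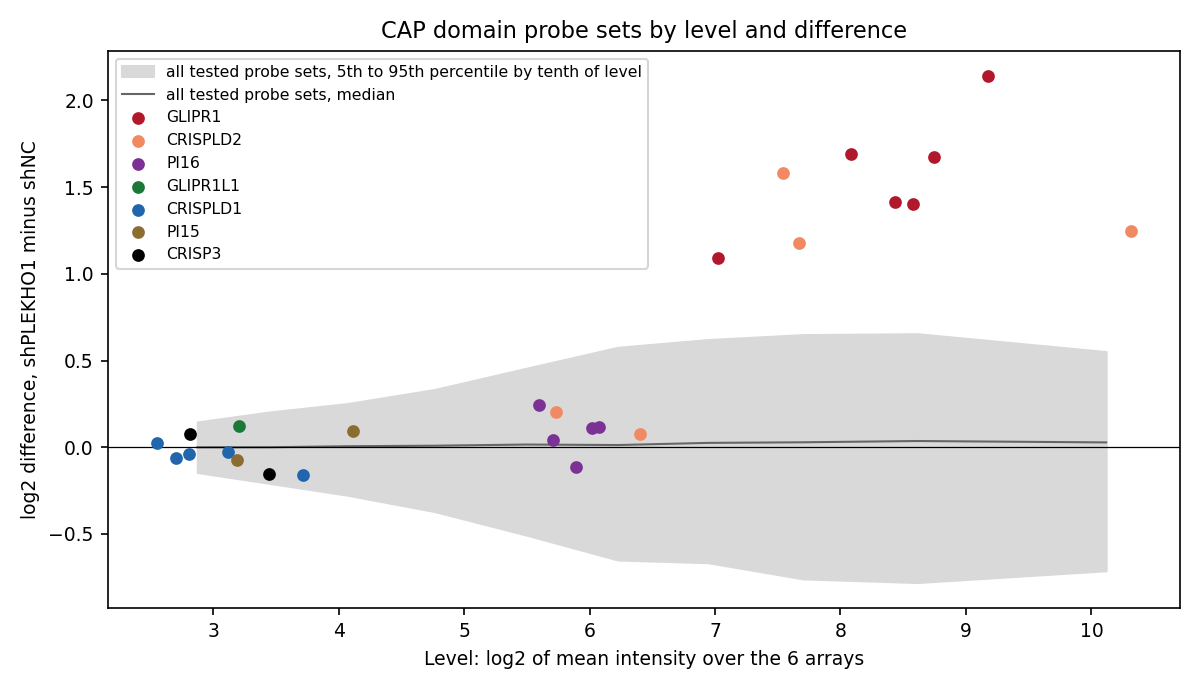
Log2 difference of shPLEKHO1 minus shNC (vertical axis) against the log2 of the mean intensity over the 6 arrays (horizontal axis) for the 26 member probe sets, coloured by gene, over a grey band from the 5th to the 95th percentile and a line at the median of all 44988 tested probe sets in 10 bins of level. GLIPR1 and 3 CRISPLD2 probe sets lie above the band, at differences of 1.09 to 2.14. Intensity depends on the probes, so the horizontal positions do not rank the genes by amount of transcript.

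The CAP domain genes outside the rule were GLIPR1L2, CRISP1, CRISP2, R3HDML and 3 genes of the CLEC18 group. Of these 7, 5 had probe sets with 1 symbol, and 0 of their 6 probe sets passed. The share called was 33.0% over all tested probe sets, but 2.76% to 11.8% in the 3 lowest of the 10 bins of level, which hold these 6. Differences ran from -0.09 (CLEC18B) to 0.22 (CRISP1, adjusted p = 0.222). R3HDML, at 13.8 ± 0.344 with shPLEKHO1 and 12.6 ± 0.511 with shNC (SD, n = 3 each), was the only one whose groups did not overlap (0.12 ± 0.05, limma adjusted p = 0.109). The mean intensities of these 6 probe sets were 5.07 to 18.6, near background.

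GLIPR1, GLIPR1L1 and GLIPR1L2 lie next to each other on chromosome 12 in RefSeq (GRCh38.p14). The 3 protein-coding genes on each side of GLIPR1 were examined, which are CAPS2, GLIPR1L1 and GLIPR1L2 before it and KRR1, PHLDA1 and NAP1L1 after it. Of the 25 probe sets of these 6 genes 4 rose and 7 fell, where 17.3% of all tested probe sets rose and 15.7% fell. The share called in either direction was 50.1% to 62.1% in bins 7 to 10, which hold most of the probe sets after GLIPR1. None of the 6 probe sets before GLIPR1 passed, and their differences ran from -0.10 to 0.12 with mean intensities of 5.07 to 9.69. None of those 6 was above the 17-base background on any of the 6 arrays, so a change of these genes could be missed. After GLIPR1, KRR1, a factor of small ribosomal subunit assembly, rose with 3 of 5 probe sets, with differences from 0.28 to 0.43 for those 3. The largest, 11728683_x_at, read 172, 168 and 189 with shPLEKHO1, against 139, 115 and 146 with shNC (log2 difference 0.43 ± 0.09, limma adjusted p = 0.00858). The annotated spans of GLIPR1 and KRR1 overlap in RefSeq, and whether any probe set lies in the shared stretch was not analysed here.

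PHLDA1, which codes for a pleckstrin homology-like protein, went both ways, with 1 of 4 probe sets up (0.19 ± 0.05, limma adjusted p = 0.0214) and 1 down (-0.39 ± 0.06, 0.00127). The rise of PHLDA1 was lost without shPLEKHO1 replicate 1 or 3 or shNC replicate 1 or 3 (adjusted p from 0.0634 to 0.0653), and with a replicate block (0.0687). NAP1L1, a histone chaperone, fell with 6 of 10 probe sets, down to -1.10 ± 0.12 (11732206_a_at), while its others were between -0.18 and 0.05. The smallest falls of NAP1L1 were lost when arrays were left out, 11749234_x_at (-0.25) without any array but shPLEKHO1 replicate 3 (adjusted p from 0.0525 to 0.0853) and 11762777_a_at (-0.35) without shPLEKHO1 replicate 1 or 2 or shNC replicate 1 or 2 (0.0549 to 0.0738). No gene of the 6 had a probe set with a difference as large upward as the smallest of GLIPR1, which is a description because GLIPR1 was chosen for its rise. The genes before GLIPR1 were read near background, which limits this comparison for them.

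Proteins reported to act with or on CAP domain proteins formed a list of 18 genes, of which 17 were measured with 70 probe sets. Of these 70 probe sets 17 rose and 20 fell, where 17.3% of all tested probe sets rose and 15.7% fell. The share called in either direction was 33.0% over all tested probe sets. It was 50.1% to 62.1% in bins 7 to 10 of the 10 bins of level, counted from the dimmest, which hold most of the 70. The median difference of the 70 was 0.02. At least 1 probe set rose in 7 genes, and at least 1 fell in 5 other genes. No call was lost under any alternative for 33 of the 37 probe sets, and those lost belonged to CSNK1A1, CTSK and NR3C1.

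Among regulators and targets tied to GLIPR1, SRF, a transcription factor reported to drive GLIPR1 in glioma cells, rose with both probe sets. SRF probe set 11737486_s_at averaged 316 ± 6.04 with shPLEKHO1 and 164 ± 2.32 with shNC (SD, n = 3 each; log2 difference 0.95 ± 0.05, limma adjusted p = 7.74e-06). IL6, a cytokine reported to be raised by GLIPR1 in glioma cells, rose with both probe sets, by 1.70 ± 0.05 and 0.58 ± 0.08. Its probe set 11746463_a_at averaged 1249 ± 8.41 with shPLEKHO1 and 386 ± 16.6 with shNC (SD, n = 3 each; limma adjusted p = 5.26e-07). GLIPR1 has been reported to promote the loss of the beta-catenin and MYC proteins through casein kinase 1 alpha in prostate cancer cells. The arrays read RNA, and protein was not measured here. CTNNB1, which codes for beta-catenin, fell with all 8 probe sets (differences from -1.39 to -0.38), while MYC rose slightly with its 1 probe set (0.22 ± 0.05, limma adjusted p = 0.0081). CSNK1A1, which codes for that kinase, rose with 3 of 11 probe sets (0.17 to 0.20). The other 8 did not pass and lay between -0.17 and 0.12. Of these, 11762434_s_at (-0.17, limma adjusted p = 0.0722) passed as a fall under 4 of 14 alternatives. As rises, 11748688_x_at passed under 3 and 11736307_x_at under 1. The call of 11748687_s_at of CSNK1A1 was lost without any 1 of the 6 arrays (adjusted p from 0.0505 to 0.087), and that of 11756304_x_at without shPLEKHO1 replicate 1 or 3 or shNC replicate 1 or 3 (0.0559 to 0.0777). With a replicate block both calls were lost as well (0.0838 and 0.072).

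Of reported binding partners, HSPA5, the chaperone of the endoplasmic reticulum, fell with all 6 probe sets (-0.81 to -0.46). WASL, which codes for the actin regulator N-WASP, rose with 2 of 3 probe sets (0.23 ± 0.05 and 0.24 ± 0.05). HNRNPK (6 probe sets, differences from 0.02 to 0.13) and IRAK1BP1 (0.04 ± 0.06) did not pass. BECN1 and CAV1, partners of GLIPR2, went opposite ways. BECN1, an autophagy protein, rose with all 6 probe sets (0.34 to 0.39), and CAV1, the caveolae protein, fell with all 4 (-0.49 to -0.33).

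Around PI16, RARRES2, which codes for the chemokine chemerin, fell (-0.42 ± 0.08, limma adjusted p = 0.0033), and none of the 4 probe sets of the metalloproteinase MMP2 passed (-0.07 to 0.03). CTSK, which codes for cathepsin K, fell by 0.19 on the log2 scale (adjusted p = 0.0387). That call was lost without shPLEKHO1 replicate 1 or 2 or any 1 of the shNC arrays (adjusted p from 0.0641 to 0.125). It was also lost without normalization (0.0734), with median centring (0.0851), with a variance trend (0.103) and with a replicate block (0.0626). MSMB and A1BG, partners of CRISP3, did not pass and read 7.46 to 22.3 on average. NR3C1, the glucocorticoid receptor, through which CRISPLD2 is induced in the lung, rose with 1 of 10 probe sets (0.22 ± 0.06, adjusted p = 0.0239). The call for NR3C1 was lost without shPLEKHO1 replicate 2 or 3 or shNC replicate 2 or 3 (adjusted p from 0.0608 to 0.0833). Without normalization (0.0549), with median centring (0.0549) and with a replicate block (0.0575) it was lost as well. The other 9 probe sets of NR3C1 lay between -0.13 and 0.12.

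**Figure D4:**
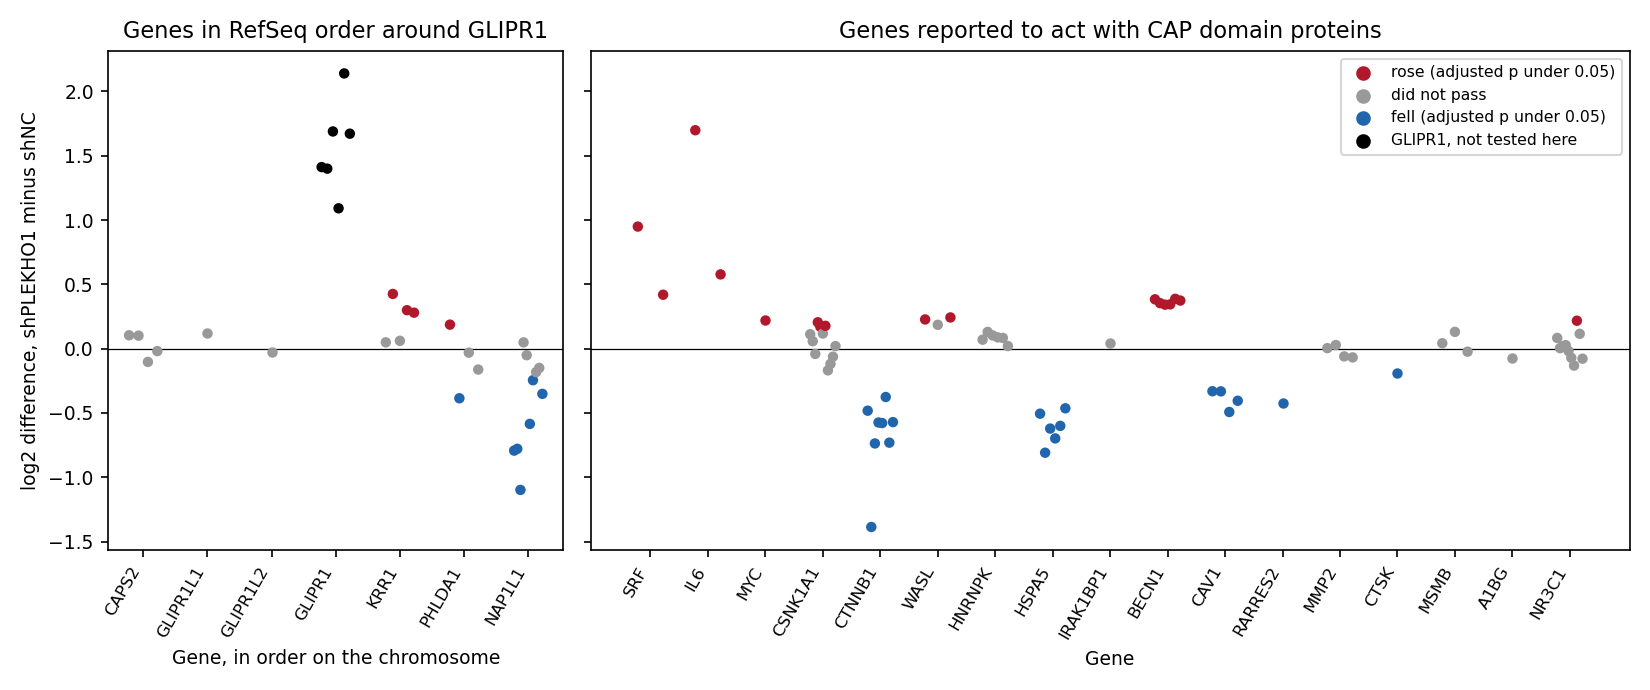
Log2 difference of shPLEKHO1 minus shNC for each probe set of the genes around GLIPR1 in chromosome order (left) and of the 17 measured genes reported to act with CAP domain proteins (right), coloured by whether the probe set rose, fell or did not pass at an adjusted p of 0.05, with GLIPR1 in black. GLIPR1 stands at 1.09 to 2.14 between neighbours at -1.10 to 0.43, and CTNNB1, HSPA5 and CAV1 lie wholly below 0 while SRF, IL6 and BECN1 lie wholly above.

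The genes whose pattern over the 6 arrays was most like that of GLIPR1 were found by the root mean square difference of the centred log2 values, with 1 probe set per gene. The nearest was CCL20, which codes for a chemokine (root mean square difference of 0.14, Pearson r of 0.9998 over 6 arrays), then ARHGDIB (0.14), AKAP12, a kinase A scaffold (0.16), CD274, which codes for PD-L1 (0.19), and IL6 (0.22). Their own differences were 2.41, 1.86, 1.83, 1.90 and 1.70. All 6 arrays are shared and the likeness rests on the difference between the groups, so it is a description with no test.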

How the data were processed

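Affymetrix Expression Console made the deposited values, according to the submitters' processing notes, and the deposited values are intensity on a linear scale with 1 value for each probe set on each array. Neither its version nor its algorithm is given in the sources used here, nor whether arrays were normalized. Total RNA was labelled with biotin, per the labels' protocols. Genes were named from the array's annotation and updated by Entrez identifier through RefSeq (GRCh38.p14), which matched 44961 of 44988 probe sets. Control probe sets (102) and those with several symbols or none were left out.

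Values were taken as log2(intensity + 1), quantile normalized over all probe sets, and fitted in R 4.3.3 by limma 3.58.1 (lmFit, eBayes), each probe set on its own, without covariates and with Benjamini-Hochberg adjustment over 44988 probe sets. The fit was tested on simulated data first. Members, gene lists and tests were chosen with earlier results of these data known. Named genes are all members, PLEKHO1, the other CAP domain genes, the reported partners, the 3 protein-coding genes on either side of GLIPR1, the 5 genes with the most similar pattern, and cell type markers. Promoter sequences are from RefSeq (GRCh38.p14). Entries on the chromosome that holds CRISPLD1 and PI15 were left out before matching, so the promoters of these genes were not searched. Of the rest, the members matched were CRISPLD2, CRISP3, GLIPR1L1, PI16 and GLIPR2, the last not used here for want of a probe set. Promoter motifs were chosen after the values were seen. The number of arrays limits the precision.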

Additional observations from a re-analysis of the deposited data

How the results depend on the processing

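Alternatives were no normalization between arrays, centring on the median, pseudocounts of 0 and 16, leaving out the lowest 30% of probe sets, array weights, a robust fit with a variance trend, a replicate block, and dropping arrays 1 at a time. The 4 rises among the members outside GLIPR1 stayed between 3 and 5. All 14 alternatives kept the calls of the 3 strongly changed CRISPLD2 probe sets, and PLEKHO1 stayed below an adjusted p of 0.05 (0.00254 to 0.0444). The number of members that fell, 0, was 0 to 1 when 1 array was left out. Read by 1 probe set per gene, 6190 of 18132 genes were called, against 14858 of 44988 probe sets, fewer because fewer features were tested. The GLIPR1 difference of 11721842_a_at ranged from 2.06 with a pseudocount of 16 to 2.17, and was 1.57 with the mean of its probe sets. The call of CRISPLD2 11759999_at was also lost without normalization (adjusted p = 0.0632), with median centring (0.0506) and with a variance trend (0.0721), and PI16 11723456_x_at passed with array weights (0.29, adjusted p = 0.0398). The cause of these changes was not tested. Same-numbered arrays did not deviate together (correlations of -0.152, -0.146 and -0.04), so the numbers were not taken as pairs. With the replicate block, 12937 probe sets were called, 4 members outside GLIPR1 rose, and PLEKHO1 was at -0.32 (adjusted p = 0.00849). Signal near background limits what can be said of GLIPR1L1, CRISPLD1, PI15 and CRISP3.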
